A study of Mus musculus with 3 samples.

Results

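The Cyp2c genes encode cytochrome P450 enzymes of the endoplasmic reticulum. They oxidise arachidonic acid, retinoids, bile acids and many drugs. Most of them lie side by side in 1 cluster on mouse chromosome 19 and arose from each other by duplication. The 10 genes described here, Cyp2c29, Cyp2c37, Cyp2c38, Cyp2c39, Cyp2c40, Cyp2c44, Cyp2c50, Cyp2c54, Cyp2c55 and Cyp2c70, were named in advance and found by symbol in the GENCODE M1 annotation of the NCBI37/mm9 genome. They were chosen by their membership of the family with earlier RXRα and RARα values near these genes, from the same libraries, already known, so their binding is described and not tested. All 10 are among the 22380 protein-coding genes that were scored in the same way, and another 5 genes of the family, Cyp2c65, Cyp2c66, Cyp2c67, Cyp2c68 and Cyp2c69, lie in the same cluster.

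The chromatin was from the livers of wild type male C57BL/6 mice aged 3 months. There were 3 libraries, 1 each of RXRα ChIP, of RARα ChIP and of input chromatin that was not precipitated. With 1 library each there was no replicate, so no test between libraries was made, and every interval given below is a 95% interval for counting error only. The tracks used here sum to 9999939 reads for RXRα and 9999292 reads for input. These nearly equal totals are not the sequencing depth, since the paper states a larger number of uniquely mapped reads for RXRα. The intervals treat the reads in these tracks as counts, and whether they would differ at the sequenced depth was not tested. For RARα only a list of 143280 peaks was used, which holds no read counts.

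RXRα is a nuclear receptor that binds DNA as the partner of other receptors, among them the retinoic acid receptor RARα and the drug-sensing receptors PXR and CAR, which are known to induce several Cyp2c genes in liver. Such pairs bind direct repeats of a core hexamer, AGGTCA or a close variant. The core hexamers searched here were AGGTCA itself, the variant AGTTCA, the variant GGGTCA and the variant GGTTCA, each without mismatch and on either strand. An RXRα region is defined here as a run of 32 bp bins in which RXRα reached at least 20 times input. It counted for a gene when its midpoint lay within 10 kb of the gene start, which took 13 reads in a bin where input had none. RARα peaks were used as listed, at any score, with the score as the authors' peak caller gave it.

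RXRα lay near almost every member, while RARα peaks were spread far less evenly. An RXRα region lay within 10 kb of 9 of the 10 starts, all but Cyp2c29, where the share of all genes was 39.8%. A RARα peak of any score lay within 10 kb of 5 starts, against 67.3% of all genes, and a peak with a score above 20 near 2 of them, Cyp2c70 and Cyp2c44, against 52.2%. At 4 members, Cyp2c39, Cyp2c50, Cyp2c70 and Cyp2c44, a RARα peak was co-localized with an RXRα region, meaning that at least 25% of the narrower interval was shared, against 31.2% of all genes. Another 4 members, Cyp2c55, Cyp2c38, Cyp2c40 and Cyp2c37, had an RXRα region and no RARα peak within 10 kb of the start, which held for 2.58% of all genes.

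The amount of RXRα differed between the members by more than the counting error. Within 10 kb of the start, the ratio of RXRα to input reads, after scaling to equal depth, ran from 0.709 at Cyp2c29 to 4.25 at Cyp2c70, with a median of 1.91 over the members and 0.99 over all genes. Cyp2c70 (4.25, interval 3.49 to 5.19), Cyp2c55 (3.48, 2.75 to 4.43), Cyp2c39 (3.45, 2.82 to 4.23) and Cyp2c44 (3.33, 2.79 to 3.99) were the highest, and their intervals overlapped. Cyp2c50 (1.94, 1.61 to 2.35), Cyp2c40 (1.88, 1.52 to 2.35), Cyp2c37 (1.81, 1.48 to 2.23), Cyp2c54 (1.5, 1.19 to 1.89) and Cyp2c38 (1.47, 1.15 to 1.89) followed, again with overlapping intervals. None of the intervals of these 5 genes reached those of the first 4. Cyp2c29 at its annotated start (0.709, 0.494 to 1.01) was the lowest. The highest ratio in a single bin had a median of 35.4 over the members and 14.9 over all genes.

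**Figure D1:**
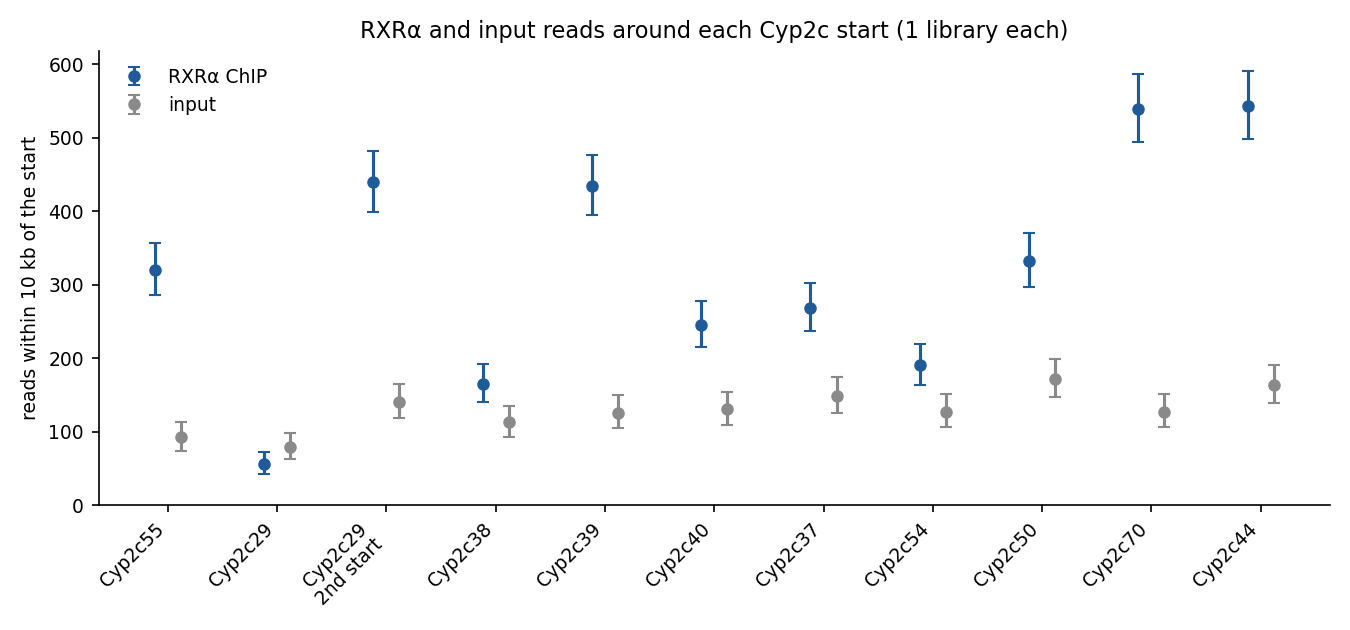
RXRα (blue) and input (grey) reads within 10 kb of each start, in order along chromosome 19, with 95% Poisson intervals for 1 library each. RXRα ran from 56.0 reads at the annotated start of Cyp2c29 to 543 at Cyp2c44, while input stayed between 79.0 and 171, and the second start of Cyp2c29 had 439 RXRα reads.

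Cyp2c70 is the enzyme with which mice turn chenodeoxycholic acid into muricholic acids. The gene lies at chr19:40227843-40261823 on the minus strand. Of the members it had the highest RXRα ratio and the most RARα peaks. Its window held 539 RXRα reads against 127 of input, 5 RXRα regions and 26 RARα peaks, 14 of them with a score above 20. The highest RXRα ratio, 78.0, lay 3570 bp upstream, with 47 reads against 0 in input and a RARα peak of score 9. The most RXRα reads, 88 against 5, lay 18 bp upstream of the start, in a region that overlapped the RARα peak of score 62, the highest in the cluster. The 200 bases around the highest ratio of this region (51.4), chr19:40261934-40262133 on the minus strand, are shown because this RARα peak covers them. They had up to 64 RXRα reads against 4 in input. The bin of 88 reads and the summit of the RARα peak, 98 bp into the gene, lie outside these bases. The printed bases hold no core hexamer of any of the 4 kinds searched, so no letter is in capitals.
Cyp2c70, centred 210 bp upstream: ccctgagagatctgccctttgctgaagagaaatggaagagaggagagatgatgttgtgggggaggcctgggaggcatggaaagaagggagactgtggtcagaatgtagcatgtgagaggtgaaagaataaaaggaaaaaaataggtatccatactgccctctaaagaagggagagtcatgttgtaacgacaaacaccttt

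RARα peaks ran along Cyp2c70 from its start to its end. There were 71 RARα peaks over the gene of 34.0 kb, with scores from 6 to 62 and a median of 18, and 26 of them were above 20. They covered 79.2% of the gene. Of the 13506 genes longer than 10 kb, 47 had at least this cover, and 0.814% had 50% or more. Most peaks abutted: 56 of 70 gaps between neighbours were exactly 10 bp, so these are pieces of longer stretches as the peak caller split them. In all, 65 summits were intronic, 5 were in coding exons and 1 was in a UTR. Scores were higher on the start side (median 24 over 34 peaks) than on the end side (median 15 over 37). The widest gap was 4981 bp long, and 39.4% of its 36-base words occur once in the genome, against 87.4% over the whole gene.

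RXRα along the gene was higher on the start side as well, where RARα scored higher. Over the body of Cyp2c70 the RXRα ratio was 2.06 (1.76 to 2.41), with 504 reads against 245. Within the 71 peaks the median ratio was 1.67, with 2.75 on the start side and 1.04 on the end side. The peak of score 62 had 16.5. Of the 27 peaks below 1, 10 were on the start side and 17 on the end side. RXRα regions were co-localized with 3 of them, at the start, 8686 bp into the gene and near its end.

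**Figure D2:**
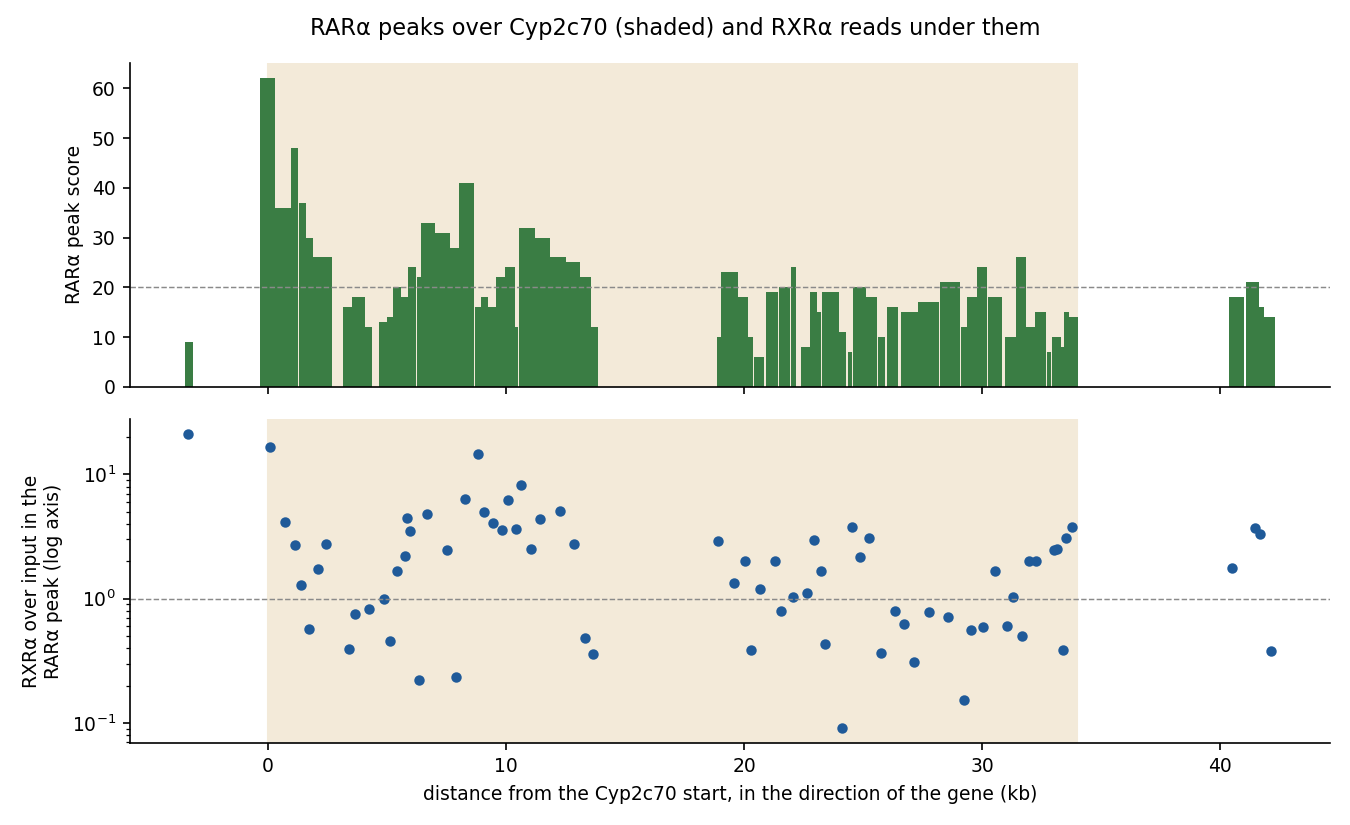
Upper panel, score and extent of each RARα peak against the distance from the Cyp2c70 start in kb, with the gene shaded. Lower panel, RXRα over input within each peak on a log axis, where the dashed line marks 1. The peaks reach from the start, with the score of 62, to the end of the gene, and their RXRα values scatter on both sides of 1.

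The other members had few RARα peaks over their bodies. Cyp2c29 had 6, Cyp2c44 had 4, Cyp2c54 had 2, and Cyp2c55, Cyp2c39 and Cyp2c50 had 1 each. Cyp2c38, Cyp2c40 and Cyp2c37 had none. A RARα peak lay over 7 of 10 bodies, against 61.6% of all genes. The peak within Cyp2c55 had a score of 33, the highest outside Cyp2c70. It lay in an intron, 20741 bp from the start, where RXRα was 2.65 times input and no RXRα region was found.

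Cyp2c39 hydroxylates retinoic acid and so belongs to the enzymes that clear the ligand of RARα. At chr19:39585352-39643019 on the plus strand, it had the highest RXRα ratio of any bin near a member start, 171, with 103 reads against 0 in input at 1111 bp upstream. No RARα peak lay on that region. A second RXRα region on the start itself (ratio 34.0, 34 reads against 1) overlapped a RARα peak of score 18. Another, of ratio 55.0, was in an intron 41801 bp into the gene, without RARα. Upstream of Cyp2c39 the input was uneven: taking the mean input of 1 kb around the bin as the background, the highest ratio fell to 45.5.

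Cyp2c38 (chr19:39464046-39537565, minus strand), which oxidises arachidonic acid, is the nearest relative of Cyp2c39 and points away from it. Its window held 165 RXRα reads against 112 of input. The most reads in a bin, 52 against 3 in input, lay 1140 bp upstream, at the place that matches the Cyp2c39 region. RXRα regions lay on either side of this bin. They were 948 bp upstream (14 reads against 0, ratio 23.2) and 1204 bp upstream (44 against 2, ratio 22.0). No RARα peak lay within 10 kb or over the body. The 2 upstream windows were aligned, and 9 of 200 bases differ (95.5% identity). They are shown because the same sequence gave 106 reads at Cyp2c39 and 52 at Cyp2c38. Capitals mark the bases that differ. Cyp2c39 is chr19:39584142-39584341 on the plus strand and Cyp2c38 is chr19:39538567-39538766 on the minus strand.
Cyp2c39 upstream: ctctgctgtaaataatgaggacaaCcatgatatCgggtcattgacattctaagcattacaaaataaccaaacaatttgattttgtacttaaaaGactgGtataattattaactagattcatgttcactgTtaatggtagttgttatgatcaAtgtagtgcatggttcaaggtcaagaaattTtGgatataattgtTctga
Cyp2c38 upstream: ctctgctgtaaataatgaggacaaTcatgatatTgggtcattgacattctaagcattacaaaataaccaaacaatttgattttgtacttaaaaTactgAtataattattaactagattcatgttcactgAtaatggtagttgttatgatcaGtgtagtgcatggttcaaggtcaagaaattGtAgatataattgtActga

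Cyp2c29 is an abundant liver enzyme that makes epoxides of arachidonic acid and is known to be induced by phenobarbital. It is annotated at chr19:39315441-39405189 on the plus strand. At the annotated gene start it was the only member without an RXRα region: there were 56.0 RXRα reads against 79.0 of input, no bin above 5 reads and no RARα peak. That start, at position 39315441, belongs to 1 of its 2 annotated protein-coding transcripts. The other transcript starts 46160 bp downstream at 39361601, and the RefSeq start lies at 39361575. Around this second start the values were like those of the highest members. There were 439 RXRα reads against 140, a ratio of 3.13 (2.59 to 3.82), 5 RXRα regions and 3 RARα peaks with scores of 27, 12 and 16. RXRα was co-localized with 2 of these peaks. With the second start in place of the first, 10 of 10 members had an RXRα region, 6 had a RARα peak and 5 a co-localized one, and 3 had a score above 20. The shares of all genes at their annotated starts were 39.8%, 67.3%, 31.2% and 52.2%, in the same order. No share was counted with other starts chosen in this way.

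The strongest RXRα region at Cyp2c29 reached a ratio of 78.0 at 1392 bp upstream of the second start, and the most reads, 77 against 2 in input, lay 1296 bp upstream. The window, chr19:39360110-39360309 on the plus strand, is intronic to the longer transcript. Its sequence is shown because it carries the signal that the annotated start misses. Capitals mark the core hexamer, here GGGTCA.
Cyp2c29, upstream of the second start: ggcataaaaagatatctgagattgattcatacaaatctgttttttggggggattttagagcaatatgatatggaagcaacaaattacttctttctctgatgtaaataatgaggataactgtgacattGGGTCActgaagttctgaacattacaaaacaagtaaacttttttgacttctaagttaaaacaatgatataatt

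This window is a diverged relative of those upstream of Cyp2c38 and Cyp2c39. In local alignments of 300-base windows, 81.4% of 269 aligned bases matched with Cyp2c38 and 81.0% of 200 with Cyp2c39. The RXRα profiles were compared at equal distances from the starts, and did not follow the likeness of sequence in every pair. Over 40 windows of 500 bp, the correlation of log2(reads + 1) was 0.63 between Cyp2c38 and Cyp2c39 and 0.56 between Cyp2c29 and Cyp2c39. It was also 0.63 between Cyp2c38 and Cyp2c50, whose windows matched at 68.4% of 209 aligned bases. Between Cyp2c37 and Cyp2c50, which matched at 91.2% of 261, it was 0.13. Their matching stretches lie 2764 bp and 1117 bp upstream and so fall in different windows. This low value therefore does not show that the matching stretches differ in RXRα. These are neighbouring bins of 1 library, so the correlations only describe the shapes.

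**Figure D3:**
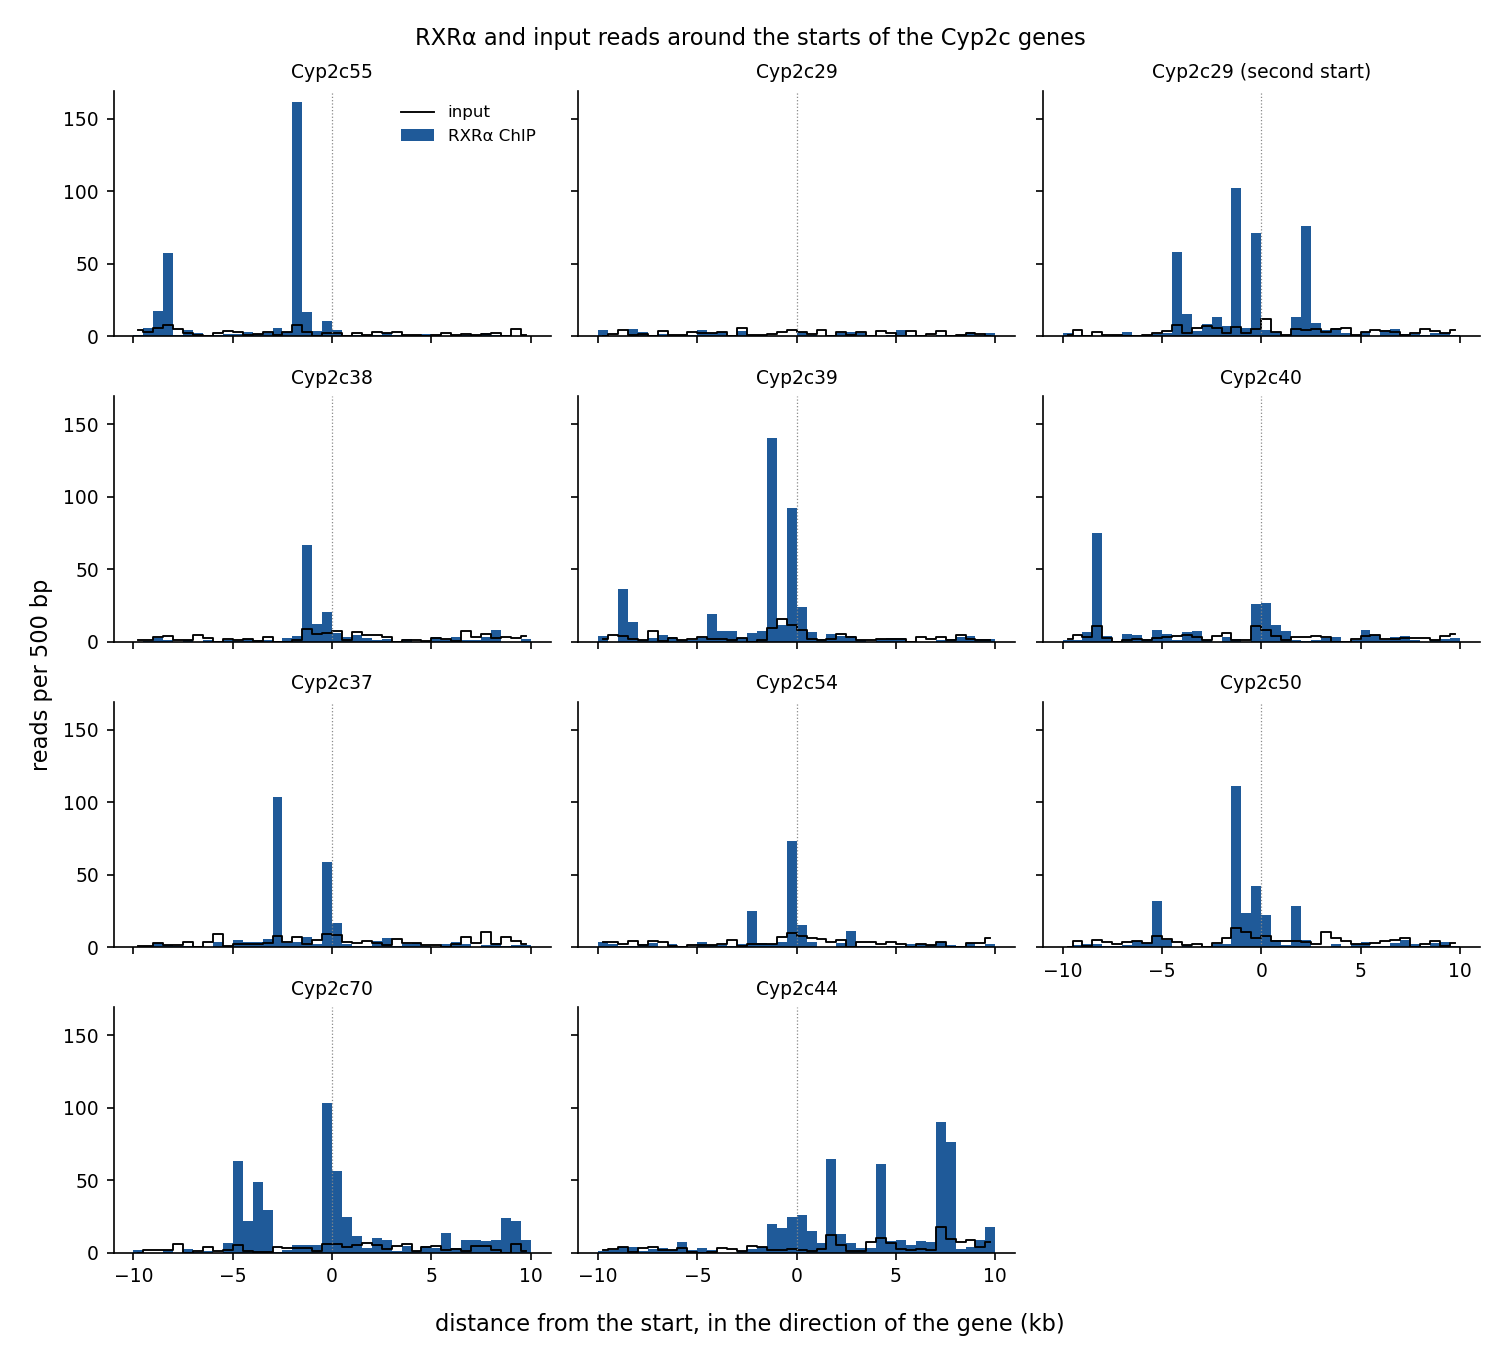
Reads per 500 bp (RXRα as blue bars, input as a black line) against the distance from the start in kb, in the direction of the gene, for the 10 members and the second start of Cyp2c29. Cyp2c29, Cyp2c38, Cyp2c39 and Cyp2c50 have their tallest bar 1.0 to 1.5 kb upstream (Cyp2c29 at its second start), Cyp2c55 and Cyp2c37 farther out, and the annotated start of Cyp2c29 has none.

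Cyp2c55 oxidises arachidonic acid and is known to be induced in mouse liver by ligands of CAR and PXR. At chr19:39081509-39117183 on the plus strand, it had a single RXRα region, 1684 bp upstream, with 128 reads against 2 of input and a ratio of 64. This bin had the most RXRα reads of any near a member start. Next to the start itself, within 500 bp, there were only 15.2 RXRα reads against 4.0. No RARα peak lay within 10 kb. The window, chr19:39079726-39079925 on the plus strand, is shown because it alone of 49 family regions had a direct repeat of the 4 core hexamers searched. Such repeats were in 2.04% of the family's windows and in 2.98% of those at all RXRα regions. Capitals mark 2 core hexamers on the minus strand, which read there as AGTTCA followed, after a spacing of 4 bases, by GGTTCA. This is a DR4.
Cyp2c55 upstream: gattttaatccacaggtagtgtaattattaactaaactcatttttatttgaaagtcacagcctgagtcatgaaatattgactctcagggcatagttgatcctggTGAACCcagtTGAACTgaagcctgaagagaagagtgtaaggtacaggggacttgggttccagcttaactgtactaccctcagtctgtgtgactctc

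Cyp2c37 and Cyp2c50 form another pair. Both oxidise arachidonic acid, and both are on the plus strand, Cyp2c37 at chr19:40066909-40086738 and Cyp2c50 at chr19:40164178-40188440. Cyp2c37 had 268 RXRα reads against 148 within 10 kb, and its region 2764 bp upstream had 63 reads against 0 (ratio 105) with no RARα peak. Cyp2c50 had 332 against 171, and the matching stretch 1117 bp upstream had 100 reads against 8, with a RARα peak of score 18 on it. The highest ratio there was 26.0. So the copy with more RXRα reads had the lower ratio, since its input was higher. Another RARα peak of score 11 lay at the Cyp2c50 start. Cyp2c50 also had a RXRα region in an intron 1663 bp from the start, with 16 reads against 0 and no RARα. The pair is shown because 1 copy had a RARα peak and the other had none. The windows match at 92.0%, and capitals mark the 16 bases of Cyp2c37 and 15 of Cyp2c50 that differ, including 1 base missing from Cyp2c50. Cyp2c37 is chr19:40064046-40064245 and Cyp2c50 is chr19:40162962-40163160, both on the plus strand.
Cyp2c37 upstream: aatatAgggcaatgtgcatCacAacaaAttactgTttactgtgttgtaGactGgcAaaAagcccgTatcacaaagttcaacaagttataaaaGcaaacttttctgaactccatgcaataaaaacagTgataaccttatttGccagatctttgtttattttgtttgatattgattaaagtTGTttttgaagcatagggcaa
Cyp2c50 upstream: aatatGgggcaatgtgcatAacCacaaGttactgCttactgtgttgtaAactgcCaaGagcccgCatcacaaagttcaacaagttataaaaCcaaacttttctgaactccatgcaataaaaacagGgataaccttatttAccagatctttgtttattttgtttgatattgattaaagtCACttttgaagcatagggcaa

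Cyp2c54 (chr19:40112431-40148301, minus strand), which also makes arachidonic acid epoxides, lies head to head with Cyp2c50, and the 15.9 kb between them had a RXRα ratio of 2.84 (2.32 to 3.52). Cyp2c54 had 190 RXRα reads against 127. Its bin with the most reads, 66 against 6 in input, lay 68 bp upstream of the start and did not reach the threshold. Its only region was 2340 bp upstream, with 14 reads against 0, 1 above the 13 needed. RARα peaks of score 10 lay 876 bp and 30711 bp into the gene.

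Cyp2c40 (chr19:39841561-39887304, minus strand), which hydroxylates arachidonic acid, had 245 RXRα reads against 130. Its only region was 8297 bp upstream (36 reads against 1, ratio 36), and with the mean input of 1 kb as background the ratio was 19.9, just below the threshold. RARα was not found within 10 kb or over the body. Near-identical copies of that upstream region stand before Cyp2c67, Cyp2c68 and Cyp2c69, at 93.4% to 97.7% identity, with 55, 50 and 45 RXRα reads at most. Around the Cyp2c40 start, 44.5% of the 36-base words occur once in the genome. How far this share comes from the likeness of these 4 genes was not tested. In bins of unique words alone the Cyp2c40 ratio was 1.45 in place of 1.88.

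Cyp2c44 (chr19:44079512-44103737, minus strand), an arachidonic acid epoxygenase that RefSeq now lists as Cyp2c23, is the member outside the cluster, 3.82 Mb beyond its end. It combined a broad RXRα signal with RARα at the start. There were 543 RXRα reads against 163 within 10 kb. A region on the start (21 reads against 0, ratio 34.8) overlapped a RARα peak of score 30, and a second peak, of score 23, lay 4202 bp into the gene. Over the body the ratio was 3.05 (2.56 to 3.63), the highest of the members, although no RXRα region had its midpoint there. The bin with the most reads, 112, was 7496 bp into the gene and had 10 in input. The strongest RXRα region of the whole family lay past the other end of the gene, 24840 bp from the start and outside the 10 kb window. It reached a ratio of 249, with 150 reads against 0 in input, and overlapped a RARα peak of score 28. A further region 29960 bp from the start (ratio 69.7) overlapped a RARα peak of score 24. The window of the strongest region, chr19:44078798-44078997 on the minus strand, is between genes. Capitals mark its 3 core hexamers.
Cyp2c44, beyond the gene end: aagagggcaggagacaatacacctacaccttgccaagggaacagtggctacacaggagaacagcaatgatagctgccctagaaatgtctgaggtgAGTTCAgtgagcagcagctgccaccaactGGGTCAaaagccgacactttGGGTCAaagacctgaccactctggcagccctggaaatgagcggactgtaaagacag

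Close to the starts RXRα was common, with a higher median ratio over the members than within 10 kb. Within 500 bp, the ratio was above 1 at 9 of 10 members, against 59.2% of all genes, with a median of 4.40 over the members and 1.56 over all genes. Cyp2c70 (12.7, 6.99 to 23.6) and Cyp2c44 (12.1, 4.69 to 48.6) were the highest. Cyp2c39, Cyp2c54, Cyp2c50, Cyp2c37 and Cyp2c55 lay between 3.80 and 5.74, Cyp2c40 at 2.79 and Cyp2c38 at 2.05 (1.04 to 4.38). Cyp2c29 had 3.0 reads against 7.0 at the annotated start and 76.0 against 17.2 at the second. When regions were sought within 1 kb of the start only, 4 members had one, and the share of all genes was not counted for this window. Cyp2c55, Cyp2c40, Cyp2c37 and Cyp2c54 had theirs farther upstream. Cyp2c50 had regions 1153 bp upstream and 1663 bp downstream of its start.

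Between the genes RXRα was denser than over the member bodies. The cluster spans 1180 kb from Cyp2c55 to Cyp2c70, and 40 RXRα regions lay in it, or 3.39 per 100 kb against 1.59 in the genome. The 13 stretches between genes held 27 regions, 5.18 per 100 kb, and 10 of them had at least 1. The 10 member bodies held 10 regions, 2.27 per 100 kb, in 4 genes: 6 in Cyp2c29, 2 in Cyp2c70 and 1 each in Cyp2c39 and Cyp2c50. A region lay over the body in 33.9% of all genes. The reads went the same way, with a ratio of 1.77 (1.68 to 1.86) between genes and 1.28 (1.21 to 1.35) over member bodies. With a threshold of 5 times input the order of the densities turned, to 22.9 per 100 kb over bodies and 20.3 between genes. From 10 times upward bodies stayed below, with 7.72 against 8.63 at 10 times.

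Single bodies ranged widely. Cyp2c38 (0.592), Cyp2c37 (0.595), Cyp2c55 (0.624) and Cyp2c54 (0.808, 0.652 to 0.997) had fewer RXRα than input reads, and their intervals ended below 1. Cyp2c50 (1.0), Cyp2c40 (1.03) and Cyp2c39 (1.1) were near input, Cyp2c29 was at 1.56 and Cyp2c70 at 2.06. Of the stretches, those from Cyp2c65 to Cyp2c66 (2.98), Cyp2c54 to Cyp2c50 (2.84), Cyp2c38 to Cyp2c39 (2.37) and Cyp2c69 to Cyp2c37 (2.13) were the highest. The last is the longest at 106 kb and held 9 regions, none overlapped by a RARα peak. Some of these 9 hold no 36-base word that occurs once in the genome. The stretch from Cyp2c37 to Cyp2c54 was the lowest (0.667, 0.504 to 0.885) and held no region and no RARα peak.

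Few of the RXRα regions of the cluster were shared with RARα. A RARα peak of any score overlapped 9 of 40 regions (22.5%), against 53.7% of all RXRα regions in the genome. Among regions of ratio 60 or more it was 2 of 8, against 68.5% of 8501. These counts leave out the regions just beyond the ends of the cluster. Of those, the regions 210 and 3570 bp upstream of Cyp2c70 overlapped RARα peaks of score 62 and 9. The regions 4466 and 4946 bp upstream of Cyp2c70 and 1684 bp upstream of Cyp2c55 overlapped none. Some regions without a RARα peak, such as those 30188 and 21900 bp upstream of Cyp2c37, hold no 36-base word that occurs once in the genome. Others without one, such as that 41801 bp into Cyp2c39, hold only words that occur once. How far RARα reads could be placed in duplicated sequence was not tested. RARα peaks numbered 113, or 9.57 per 100 kb against 5.40 in the genome, but 71 of them were over Cyp2c70. Outside that gene there were 42, or 3.66 per 100 kb.

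**Figure D4:**
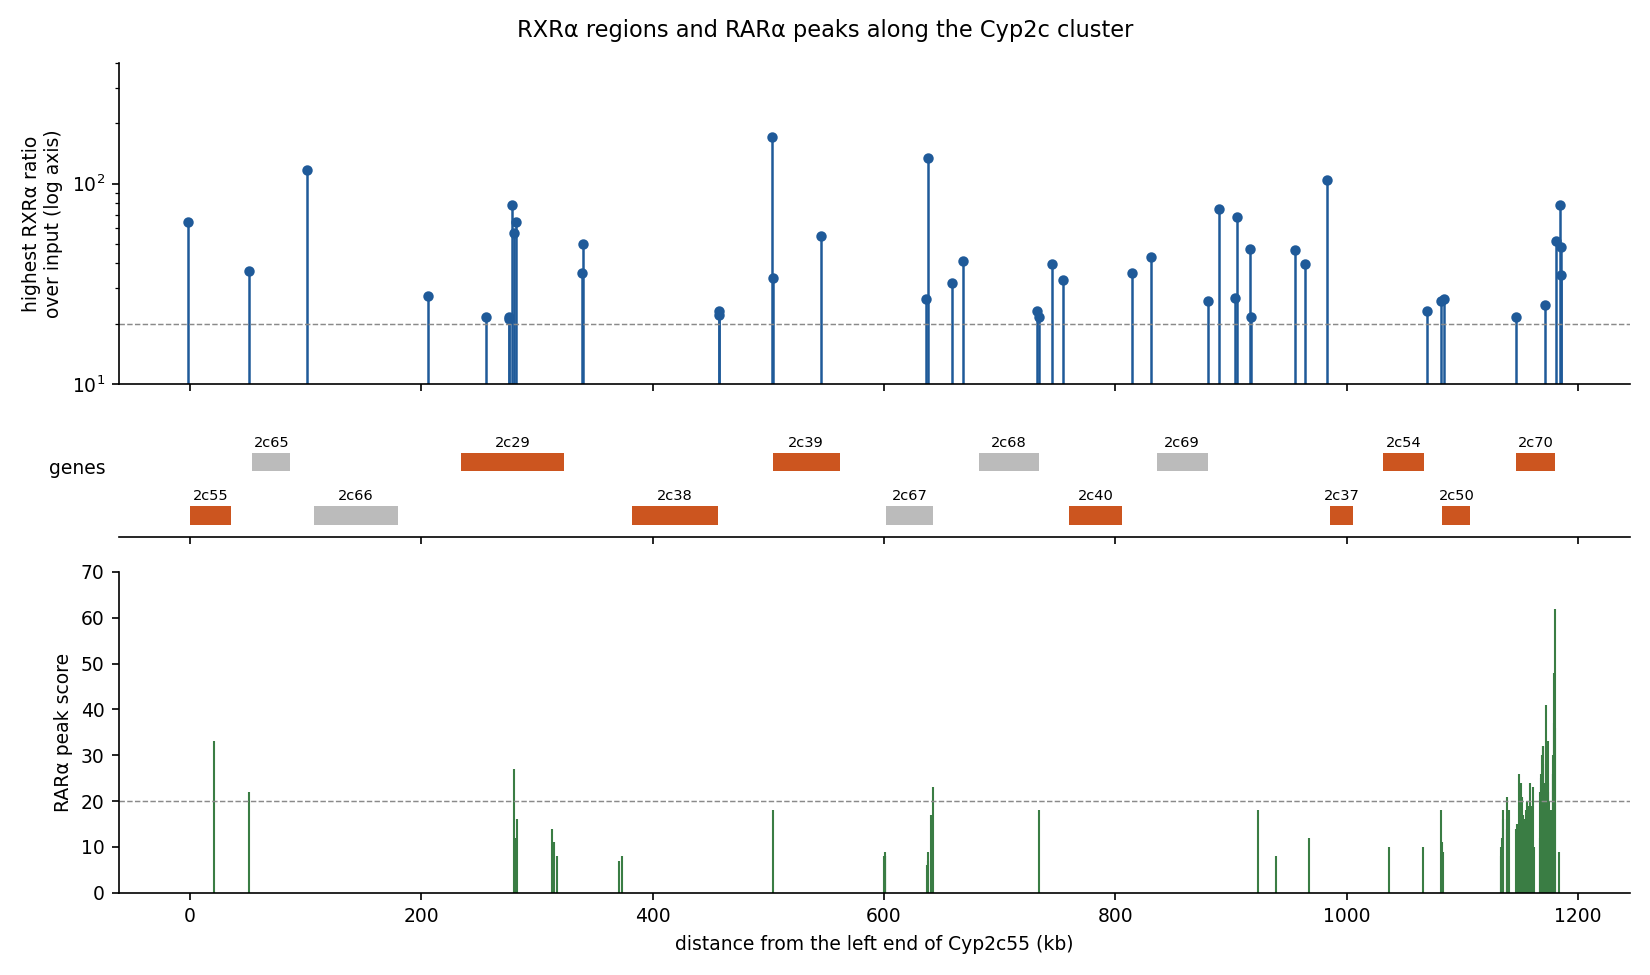
Highest RXRα ratio of each region on a log axis (top), gene bodies with members in orange and other Cyp2c genes in grey (middle), and RARα peak scores (bottom), against the distance in kb from the left end of Cyp2c55. Dashed lines mark the RXRα threshold and the score of 20. RXRα regions are spread over the whole cluster, while 71 of 113 RARα peaks stand over Cyp2c70 at its right end.

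The duplicated sequence bears on how many reads could be placed. Over the cluster, 59.4% of 36-base words occur once in the genome. Input had 5.73 reads per kb in bins with unique words only and 4.19 in bins with none, and the genome had 3.77, so reads were assigned to duplicated sequence as well. Whether RXRα reads in a near-identical copy belong to another member was not tested. Over the members, the unique share of the window ran from 43.0% at the annotated start of Cyp2c29 to 93.4% at Cyp2c44. With bins of unique words alone the median ratio was 2.28 in place of 1.91.

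Copies of a sequence with RXRα differed in whether they carried RXRα. There were 49 RXRα regions in the cluster, within 10 kb of its ends and around Cyp2c44. Of these, 33 had at least 1 copy in the family at 85% identity or more over 200 bases or more. There were 107 such copies, of which 53 lay in an RXRα region themselves and 30 had fewer than 5 RXRα reads in any bin. A single repeated sequence, upstream of Cyp2c54, gave 27 of the 54 copies outside a region. Without it, 80 copies were left, of which 27 were outside a region and 4 had fewer than 5 reads. Pairs are counted from each side where both are regions, and the copies described here were chosen after their values were seen. The sharpest contrast was at a region in an intron of Cyp2c67, 4292 bp from its start, with up to 84 RXRα reads. Its copy in an intron of Cyp2c40, 4092 bp from the start and 93.3% identical over 300 bases, had at most 2, and that in Cyp2c69 had 0. The windows are shown because the sequence is nearly the same and the signal is not. They match at 92.0%, and capitals mark the 16 bases that differ. Cyp2c67 is chr19:39719150-39719349 and Cyp2c40 is chr19:39883113-39883312, both on the minus strand. Of the 36-base words, 73.5% and 72.5% occur once.
Cyp2c67 intron: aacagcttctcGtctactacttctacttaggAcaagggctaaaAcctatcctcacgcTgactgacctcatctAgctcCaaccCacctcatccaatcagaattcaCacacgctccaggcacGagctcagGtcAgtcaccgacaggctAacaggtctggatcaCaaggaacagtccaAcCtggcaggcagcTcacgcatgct
Cyp2c40 intron: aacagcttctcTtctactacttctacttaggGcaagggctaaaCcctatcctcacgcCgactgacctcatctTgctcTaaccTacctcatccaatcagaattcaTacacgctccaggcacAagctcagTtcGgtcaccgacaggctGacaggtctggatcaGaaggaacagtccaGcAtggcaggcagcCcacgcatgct

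The core hexamers were no more frequent in the family's regions than in others. At least 1 of the 4 hexamers, on either strand, was in 63.3% of the 49 windows of 200 bases, in 64.7% of 42117 windows at all RXRα regions and in 38.2% of windows 1 kb away. A direct repeat of these hexamers with a spacing of 1 to 5 bases was in 2.04%, 2.98% and 0.603%. Direct repeats of AGGTCA with up to 2 mismatches over 12 letters were in 12.2% of the family's windows, 28.4% of all and 11.3% of those 1 kb away. Of the 6 family windows, 4 had a spacing of 4 bases (DR4). Such a DR4 was in 8.16% of the family's windows, 6.34% of all and 2.36% of those 1 kb away. A spacing of 1 base (DR1) was in 1 of 49 family windows and in 5056 of 42117 windows at all RXRα regions. It was in 1330 of 42116 windows 1 kb away. Differences between these shares were not tested. A match is a description of letters and not a bound site, and overlapping matches on both strands were counted once per window.

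All of the other 5 genes of the family had an RXRα region within 10 kb, 3 had a RARα peak and 3 a co-localized one. The shares of all genes were 39.8%, 67.3% and 31.2%. The ratios of these 5 genes ran from 1.23 (0.951 to 1.58) at Cyp2c69 to 3.24 (2.46 to 4.27) at Cyp2c66. The Cyp2c66 region 5299 bp upstream reached 117, without RARα. Copies of that region lie 28000 bp upstream of Cyp2c29 (55 reads against 2) and, as weaker regions, within its own introns.

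For the enzymes that work with the Cyp2c products or on the same substrates, 20 symbols were listed. Cyb5 and Cyb5a were alternatives for 1 gene, found as Cyb5, so all 19 genes were in the annotation. RXRα regions lay near 13 of them and RARα peaks near 17, with co-localization at 13 and a score above 20 at 11. The shares of all genes were 39.8%, 67.3%, 31.2% and 52.2%, in the same order. The median RXRα ratio was 2.26. Por, which passes electrons to all of these P450 enzymes, had the highest (7.38), with 126 RARα peaks over 67.0% of its body. Ephx1 (3.31) and Ephx2 (3.06), the hydrolases that open the epoxides, had RARα peaks of score 63 and 105, and Cyp26a1, the main retinoic acid hydroxylase, had a ratio of 6.62 and a score of 25. Ptgs2 (37 RXRα reads against 78.2 of input) and Alox5 (42 against 59), which act on arachidonic acid in inflammatory cells, had neither an RXRα region nor a RARα peak within 10 kb.

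The labelled tissue was checked against marker genes. All 8 hepatocyte markers had an RXRα region and a RARα peak above 20. Of 12 markers of stellate, Kupffer, endothelial and bile duct cells, 4 had an RXRα region and 10 a RARα peak of any score. Of 4 markers of other tissues none had an RXRα region and 2 had a RARα peak. Of all genes, 39.8% had an RXRα region, 67.3% a RARα peak of any score and 52.2% a peak above 20. Whole liver was used, so these reads come from all its cell types, in shares that were not tested.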

How the data were processed

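Chromatin of mouse liver was measured in 3 libraries. Per the labels and methods, the authors aligned reads with Bowtie and called RARα peaks with MACS, and the labels' processing notes name mm9 and CASAVA 1.4. For RXRα and input the deposited signal is whole-number coverage in 32 bp bins, in which each read covers 5 bins, so reads are the sum divided by 5. For RARα the deposited score and false discovery rate in percent were taken as listed, with no filter on the latter, and the list does not define its score.

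Tracks were scaled to the same mean. The ratio divides RXRα by the larger of the bin's input and the genome mean of 0.603, bins at or above 20 were joined within 200 bp, and a RARα peak counted by its summit. Ratio intervals are exact conditional (Clopper-Pearson) and read intervals exact Poisson, at 95%. Unique words and copies were sought in NCBI37 (copies with blastn), and RefSeq starts (from promoters of another build) were placed by sequence for 8 of 10 members, without Cyp2c54 and Cyp2c44. Region calling and intervals were tested on simulated data. The members, lists and settings were chosen with earlier results of these data known. The named genes are the members, the rest of the family and the pathway and marker lists, and sequences are those of strong regions and their copies. Python 3.11.15, numpy 2.4.6, pandas 2.3.3, scipy 1.17.1 and Biopython 1.88 were used.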

Additional observations from a re-analysis of the deposited data

How the results depend on the processing

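At RXRα thresholds of 5, 10, 15 and 30 times input the member bodies held 101, 34, 17 and 5 RXRα regions, and the stretches between genes held 106, 45, 31 and 17. At 30 times, 6 members had a region within 10 kb, against 27.9% of all genes. With the genome mean input alone as background the median of the highest ratios was 128. In windows of 1 kb, 4 members had an RXRα region, the median ratio was 3.05 and the median of the highest ratios 16.3. In windows of 5 kb the median ratio was 2.70. With the second start of Cyp2c29, an alternative chosen after seeing the data, it was 2.54. At RARα scores above 50, 1 member had a peak within 10 kb, and at scores above 20, 2 members had a co-localized one. The shares of all genes were not counted for these score settings or for the windows of 1 kb. The cause of the differences between settings was not tested, beyond the fewer or more bins, peaks and bases that each setting counts. Of all values recomputed over the members together, 53 kept their value and 15 did not, and of those for single members 102 and 38. A count kept its value when it stayed within 1.5 times, and a ratio when it stayed within its counting interval (for a median, the median bounds over the members). The number of reads in the tracks limits bins with 0 input, where 13 reads decide a call. No paired analysis was possible because each group is 1 library.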

Other observations

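RefSeq gives Cyp2c39 a second start far upstream of the annotated one, which by sequence lies at position 39421836 of chromosome 19 in NCBI37, 163516 bp upstream and beyond the end of Cyp2c29. Within 10 kb of it there were 177 RXRα reads against 107 of input, a ratio of 1.65 (95% interval 1.29 to 2.12), and 0 RARα peaks. The RXRα regions nearest to it lay 1051 bp upstream (36 reads against 1, ratio 36) and 187 bp upstream (30 against 0, ratio 49.8). These stretches are copies of the regions upstream of and on the annotated Cyp2c39 start, at 86.1% identity over 237 bases and 91.3% over 289.

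In the stretch from Cyp2c50 to Cyp2c70 there were 9 RARα peaks with scores up to 21 and no RXRα region, and the RXRα ratio was 0.924 (0.746 to 1.14).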
